A study of Mus musculus with 35 samples.

Results

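The 10 heat-shock genes of the mouse kidney described here are Hspa1a, Hspa1b and Hspa8 of the Hsp70 family, the nucleotide exchange factors Hsph1 and Bag3, the J-domain proteins Dnaja1, Dnajb1 and Dnajb4, and the small heat-shock proteins Hspb1 and Cryab. They are 10 of the 18193 genes that the array names, and all 10 were among the 13004 that passed a filter on dim signals. They were chosen by gene family together with how their signals differed between diabetic and control kidneys, as a set strongest at 2 months. The 2-month differences are therefore given as a description, without a test, and smaller differences at later ages partly follow from that choice. The diabetic animals belong to line OVE26, which expresses surplus calmodulin in the pancreatic beta cells and is short of insulin. Kidneys came from diabetic animals of this line and from controls aged 2, 4 or 8 months, all of strain FVB/NJ per the labels, and what transgene the controls did or did not carry is not stated. Total RNA of whole kidney was hybridised to Affymetrix arrays, 6 diabetic and 6 control arrays for the youngest age, 7 diabetic and 4 control for the middle one, and 6 diabetic and 6 control for the oldest.

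Heat-shock chaperones hold unfolded proteins and help them fold. Hsp70 proteins bind and release clients in a cycle in which J-domain proteins bring the client and start ATP hydrolysis, and exchange factors of the Hsp110 and BAG families free the nucleotide. Small heat-shock proteins hold clients without ATP. In stressed cells the transcription factor HSF1 binds inverted repeats of the unit nGAAn, the heat-shock element, upstream of many of these genes, and the kidney's inner medulla is a known site of high small heat-shock protein levels under salt and urea.

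The pair of inducible Hsp70 genes lie 10120 bases apart on chromosome 17, Hspa1b at chr17:34956429-34959238 and Hspa1a at chr17:34969359-34972156 (GRCm38.p6, minus strand). Promoter windows reaching from 250 bases before to 50 after an annotated start were searched for pairs of the heat-shock unit, spelled GAANNTTC or TTCNNGAA, on both strands. The stretches below, from RefSeq (GRCm38.p6) and written 5′ to 3′, end at the base before an annotated start, and the capitals mark a match. They are shown because they hold the match nearest the start of the genes whose signals moved most on their brightest probe sets. Those were Hspa1a, Hspa1b and Dnaja1 at 2 months and Hspb1 at 8 months, and Hsph1 is shown beside them.
Hspa1a, chr17:34972157-34972276, minus strand: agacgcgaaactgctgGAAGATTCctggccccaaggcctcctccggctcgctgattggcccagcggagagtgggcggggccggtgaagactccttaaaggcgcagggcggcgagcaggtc
Hspa1b, chr17:34959239-34959358, minus strand: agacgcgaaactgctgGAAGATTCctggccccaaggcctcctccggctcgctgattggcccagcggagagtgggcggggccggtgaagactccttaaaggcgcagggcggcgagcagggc
Dnaja1, chr4:40722338-40722467, plus strand: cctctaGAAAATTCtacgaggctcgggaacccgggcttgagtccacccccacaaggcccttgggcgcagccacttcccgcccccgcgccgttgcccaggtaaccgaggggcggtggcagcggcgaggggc
Hspb1, chr5:135887789-135887918, plus strand: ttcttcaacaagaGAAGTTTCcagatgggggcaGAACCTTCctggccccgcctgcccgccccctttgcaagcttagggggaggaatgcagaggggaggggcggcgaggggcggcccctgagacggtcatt
Hsph1, chr5:149636337-149636396, minus strand: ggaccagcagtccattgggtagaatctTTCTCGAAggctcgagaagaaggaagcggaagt

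Hspa1a and Hspa1b carried the same letters at the same place, 104 bases before the start, and 247 of their 250 upstream bases were identical (98.8%). Hspb1 held a pair of such matches, beginning 117 and 97 bases before its start, and Dnaja1 held 1, beginning 124 bases before its start. The tail-to-tail spelling GAANNTTC occurred in 6 of the 8 genes with a window in the table, and in 9.04% of the 27025 genes searched. The head-to-head spelling TTCNNGAA occurred in 2, Dnajb4 and Hsph1, against 9.6% of all genes. A run of 3 units (GAANNTTCNNGAA, whose other strand reads TTCNNGAANNTTC, and which contains both shorter spellings) occurred only in Hsph1, after its start, against 0.662% of all genes. At least 1 spelling was present in 7 of the 8, the exception being Dnajb1, and in 17% of all genes. A match is a run of letters and no evidence of binding, and its absence says only that the letters are not in that window. Hspa8 and Cryab were not searched.

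The values are log2 signals as deposited, so a difference of 1 is a doubling. Differences are diabetic minus control within an age, with the standard error of a limma fit over all 35 arrays, and a gene is called where its two-sided p is under 0.05 after Benjamini-Hochberg adjustment across 13004 genes. Nothing in the labels says that each array is a separate animal, so the p-values measure the spread between these arrays. Levels are not set against each other between genes or between ages, since the mean signal of an array was 6.43 to 6.44 on the 2-month arrays, 6.02 to 6.04 on the 4-month arrays and 6.54 on the 8-month arrays. The tissue label held: 7 of 8 kidney segment markers passed the filter with a mean signal of at least 11.61 on every array, against 1 of 6 skeletal muscle markers. At 2 months, diabetic arrays 5 and 6 and control arrays 5 and 6 stood apart from arrays 1 to 4 on the first principal component. Control array 6 of that age also had the highest 3′/5′ log2 ratio of beta-actin, at 2.56, against 0.81 to 1.35 on the diabetic arrays of that age. At 4 months control arrays 3 and 4 stood apart on the first principal component of that age (18.0 and 18.6, against -13.1 to 6.24 on the other arrays). In whole-kidney RNA, fewer cells of a type and less RNA per cell cannot be told apart.

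**Figure D1:**
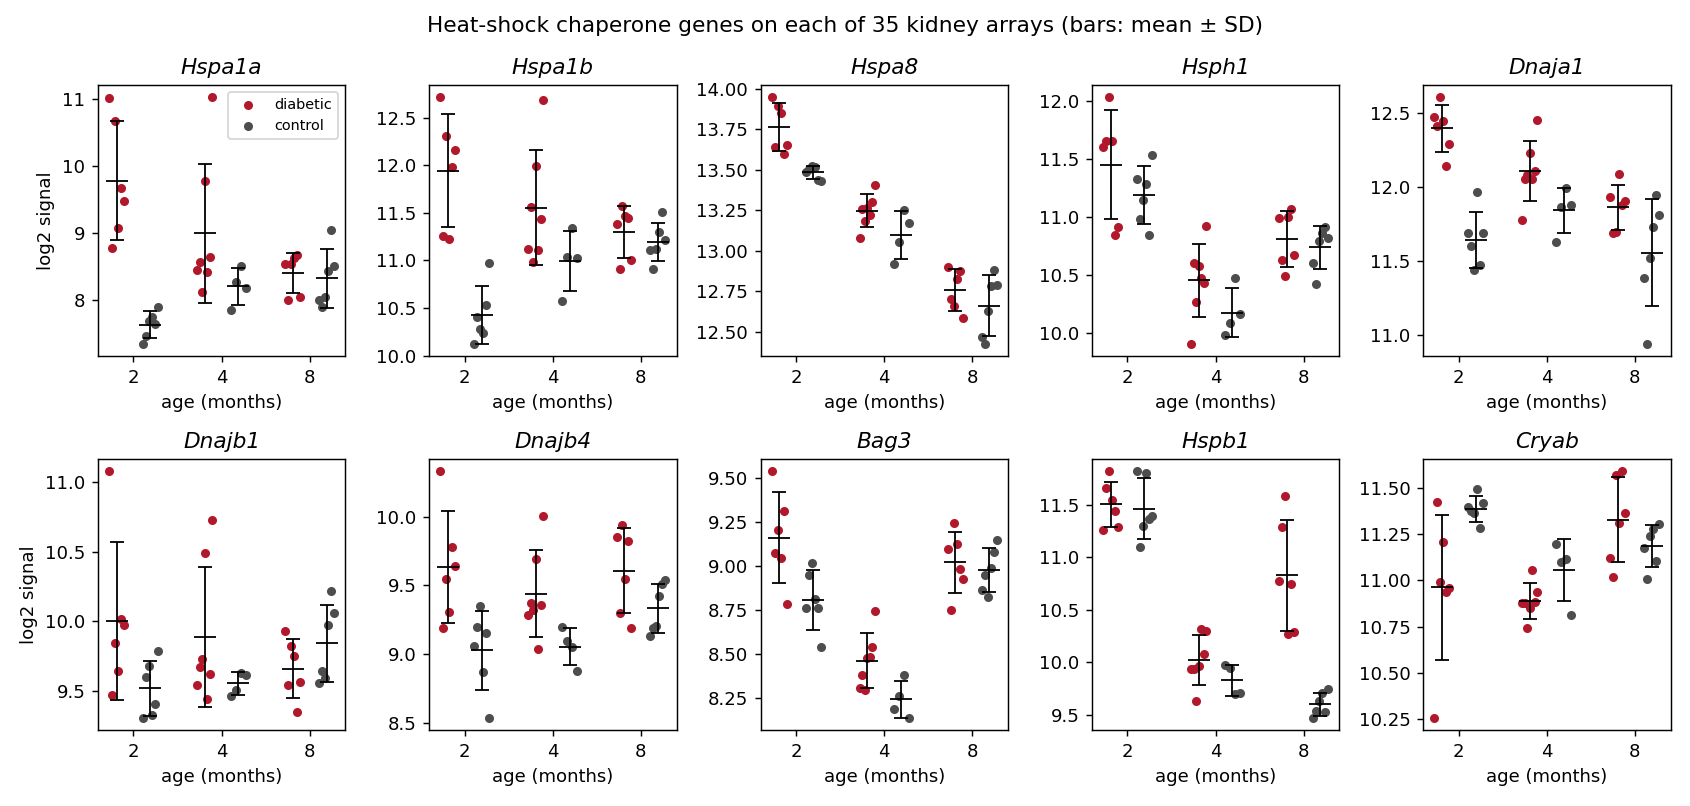
The log2 signal (vertical axes, a separate scale for each gene) of the 10 genes on each of the 35 arrays, by age in months, with diabetic arrays in red left of the control arrays in grey and bars for the mean ± SD. At 2 months the diabetic and control points of Hspa1a, Hspa1b, Hspa8 and Dnaja1 do not overlap, and at 8 months only those of Hspb1 are apart. The genes were chosen as a set strongest at 2 months.

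Across the 10 genes the 2-month difference had a median of 0.42 on the log2 scale, against -0.01 over all genes tested, and 9 of the 10 were positive, as were 45.8% of all genes. At 4 months the median was 0.27, against 0.01 over all genes, and at 8 months 0.10, against -0.000362. Again 9 of the 10 were positive at each later age, Cryab being the exception at 4 months and Dnajb1 at 8 months, where 53.5% and 49.9% of all genes were positive. The signed difference was highest at 2 months for 7 of the genes, at 4 months for Hsph1, and at 8 months for Hspb1 and Cryab. Cryab was farthest from 0 at 2 months, where it was negative (-0.42). The other probe set of Hsph1 was higher at 2 months (0.58) than at 4 months (0.27). The count of 7 and the smaller medians at the later ages partly follow from choosing a set strongest at 2 months. Every diabetic array lay above every control array for 4 of the 10 genes at 2 months (Hspa1a, Hspa1b, Hspa8 and Dnaja1). That pattern was shown by 0.538% of all genes and follows from how the genes were picked. For Hspa8 and Dnaja1 it held for the brightest probe set alone, and the groups overlapped on each of their other probe sets. At 4 months 0 of the 10 were called, by the adjusted p from limma, where 0.969% of all genes were called, and 0 of them had every diabetic array above every control array, as 2.37% of all genes did. Without adjustment the p of 3 of them, Hspa1a, Hspa1b and Dnajb4, was under 0.05, as it was for 11.4% of all genes. At 8 months 1 of the 10 was called, Hspb1, where 16.8% of all genes were called.

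**Figure D2:**
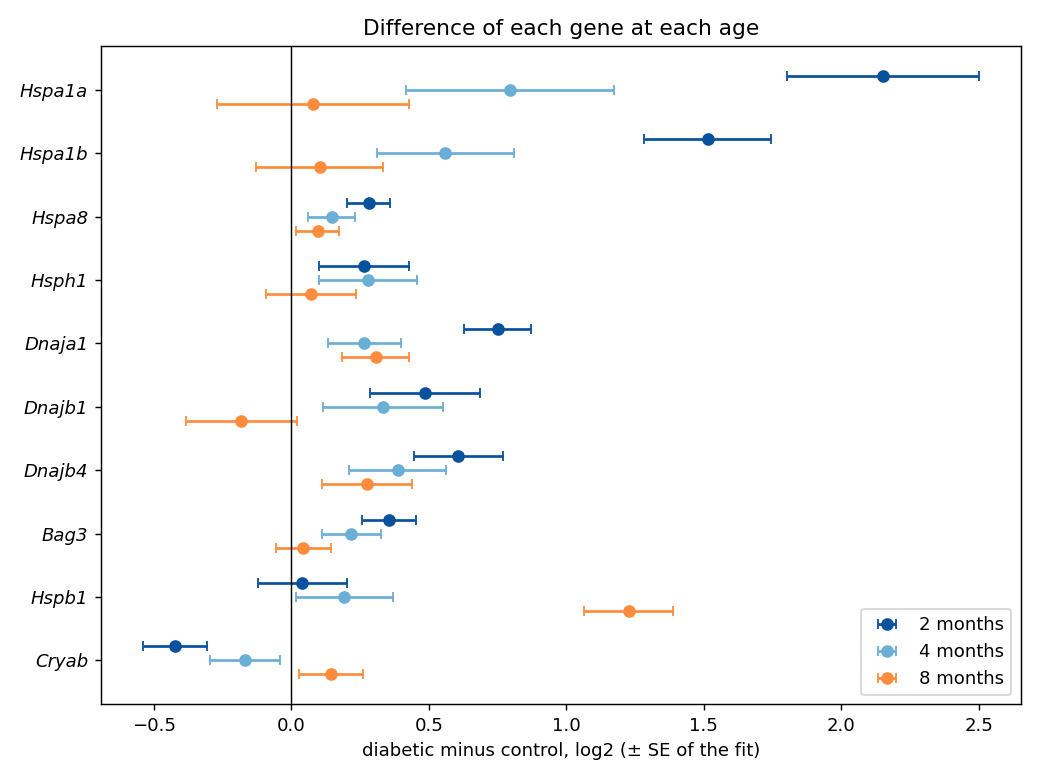
The difference of each gene (horizontal axis, diabetic minus control, log2, ± SE of the limma fit) at 2, 4 and 8 months. Hspa1a and Hspa1b show the widest separation between 2 months (2.15 and 1.52) and 8 months (0.08 and 0.10), while Hspb1 stands near 0 at 2 months and at 1.23 at 8 months. The genes were chosen as a set strongest at 2 months.

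Hspa1a, the stress-inducible cytosolic Hsp70, had signals of 11.02, 8.78, 10.68, 9.08, 9.68 and 9.49 on the diabetic arrays 1 to 6 at 2 months, against 7.34, 7.47, 7.70, 7.75, 7.65 and 7.90 on the control arrays. Its lowest diabetic array was above its highest control array, and the diabetic arrays were spread over more than 2 units while the controls kept within 1. The group means were 9.79 ± 0.89 and 7.64 ± 0.20 (SD, n = 6 each), a difference of 2.15 ± 0.35, or 4.44-fold. At 4 months the diabetic arrays 1 to 7 read 8.45, 8.57, 8.12, 9.78, 8.41, 8.65 and 11.03, and the control arrays 7.85, 8.28, 8.51 and 8.18. The groups overlapped, and arrays 4 and 7 were high while the other diabetic arrays were near the controls. That difference was 0.80 ± 0.38, which did not pass (limma adjusted p = 0.419), and it was 0.46 without diabetic array 7. At 8 months diabetic arrays read between 8.01 and 8.67 with a median of 8.54, and control arrays between 7.90 and 9.06 with a median of 8.24. The highest array of that age was a control, and the difference was 0.08 ± 0.35 (limma adjusted p = 0.917).

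Hspa1b encodes a nearly identical protein, and probes for the pair may read both transcripts, so their signals are not independent measurements. At 2 months the diabetic arrays 1 to 6 had Hspa1b signals of 12.71, 11.25, 12.30, 11.23, 11.99 and 12.16, against 10.12, 10.41, 10.28, 10.24, 10.53 and 10.98 on the control arrays. Here too no diabetic array reached down to the controls, and arrays 1 and 3 were the highest, as for Hspa1a. The difference was 1.52 ± 0.23, or 2.86-fold, and the other probe sets of the gene gave 1.65 and 1.90. At 4 months the 7 diabetic arrays read 10.99 to 12.68 with a median of 11.44, and the 4 control arrays 10.57 to 11.34 with a median of 11.04. Arrays 4 and 7 were again the highest, the groups overlapped, and the difference of 0.56 ± 0.25 did not pass (limma adjusted p = 0.383). At 8 months the difference was 0.10 ± 0.23 (limma adjusted p = 0.824), with overlapping groups.

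Hspa8, the constitutive Hsp70 that cells make without stress (chr9:40801276-40805202), differed less. At 2 months its diabetic arrays read 13.95, 13.64, 13.90, 13.85, 13.60 and 13.65, against 13.49, 13.51, 13.52, 13.52, 13.43 and 13.43 on the control arrays. The groups did not overlap, although the difference was only 0.28 ± 0.08, or 1.22-fold, and the control arrays had an SD of 0.04. With the mean of its probe sets in place of the brightest, the 2-month difference was 0.40. On each of its other probe sets the groups overlapped at 2 months. The later differences were 0.15 ± 0.08 at 4 months (limma adjusted p = 0.548) and 0.10 ± 0.08 at 8 months (limma adjusted p = 0.457), both with overlapping arrays.

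Of the exchange factors, Hsph1, the cytosolic Hsp110 (chr5:149616843-149636498), divided the 2-month arrays by number. Diabetic arrays 1 to 6 read 11.61, 11.66, 12.04, 11.66, 10.85 and 10.92, and control arrays 11.33, 10.99, 11.15, 11.29, 10.85 and 11.54. Diabetic arrays 1 to 4 were above every control array, and diabetic arrays 5 and 6 were below most of them. The difference was 0.26 ± 0.16 over all arrays, 0.55 over arrays 1 to 4 and -0.31 over arrays 5 and 6. A dimmer probe set gave 0.58 over all arrays, and both probe sets gave 0.33 without control array 6, on which they read 11.54 and 8.61. At 4 and 8 months the differences were 0.28 ± 0.18 (limma adjusted p = 0.612) and 0.07 ± 0.16 (limma adjusted p = 0.832).

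Bag3, a BAG-domain partner of Hsp70 that also binds small heat-shock proteins (chr7:128523583-128546981), read 9.54, 9.07, 9.21, 9.05, 9.32 and 8.79 on the diabetic arrays at 2 months, and 8.76, 8.95, 9.02, 8.81, 8.76 and 8.54 on the control arrays. All diabetic arrays except array 6 were above the highest control. The difference was 0.36 ± 0.10, or 1.28-fold. It was 0.22 ± 0.11 at 4 months (limma adjusted p = 0.44) and 0.04 ± 0.10 at 8 months (limma adjusted p = 0.825). The 2-month difference was 0.33 to 0.40 over 10 other settings, and 0.28 to 0.43 without 1 array. These fits reuse the arrays whose values chose the genes.

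Among the J-domain proteins, Dnaja1 (chr4:40722468-40734965), a cytosolic Hsp40 with a farnesyl anchor, had the largest 2-month difference on the brightest probe sets. Its diabetic arrays read 12.47, 12.41, 12.61, 12.44, 12.15 and 12.29, against 11.69, 11.61, 11.44, 11.97, 11.48 and 11.69 on the control arrays, with no overlap. The difference was 0.75 ± 0.12, or 1.68-fold, and 0.48 with the mean of its probe sets. Its other probe sets gave 0.43 and 0.27 at 2 months, with overlapping groups. Second probe sets of Dnajb1 and Dnajb4 gave 0.71 and 0.74, and the dimmest of Dnajb4 gave -0.09, so the order depended on the probe set. At 4 months it was 0.27 ± 0.13 (limma adjusted p = 0.451). At 8 months diabetic arrays read 11.69 to 12.09 with a median of 11.89, and control arrays 10.94 to 11.95 with a median of 11.63. They overlapped, and the difference of 0.31 ± 0.12 stood just outside the threshold (limma adjusted p = 0.0824). Control array 2 was the lowest there. The call was made without control array 5, which was the highest (0.39, limma adjusted p = 0.0263). At 8 months the other 2 probe sets of Dnaja1 gave -0.05 and 0.01.

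Dnajb1 (chr8:83608175-83612653), the Hsp40 that pairs with inducible Hsp70, read 11.08, 9.47, 9.84, 9.64, 10.02 and 9.98 on the diabetic arrays at 2 months, and 9.31, 9.60, 9.68, 9.33, 9.41 and 9.79 on the control arrays. Diabetic array 1 was far above all others, and diabetic arrays 2 and 4 lay within the controls. The difference was 0.49 ± 0.20, and 0.27 without diabetic array 1. Its other probe set gave 0.71 ± 0.16 at 2 months, with no overlap, the lowest diabetic array at 9.28 and the highest control array at 9.15. At 4 months diabetic arrays 4 and 7, at 10.49 and 10.73, were apart from the other diabetic arrays (9.44 to 9.73) and from the control arrays (9.47 to 9.63). That difference was 0.33 ± 0.22 (limma adjusted p = 0.627). At 8 months the sign was negative, -0.18 ± 0.20, and did not pass (limma adjusted p = 0.609).

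Dnajb4 (chr3:152181580-152210432), a related Hsp40, read 10.33, 9.19, 9.55, 9.30, 9.78 and 9.64 on the diabetic arrays at 2 months, and 9.05, 9.20, 9.35, 8.87, 9.15 and 8.53 on the control arrays. The groups overlapped through diabetic arrays 2 and 4. The difference was 0.61 ± 0.16, or 1.52-fold. It was 0.39 ± 0.18 at 4 months (limma adjusted p = 0.399) and 0.28 ± 0.16 at 8 months (limma adjusted p = 0.273), so its sign was positive at every age without passing at either later one. Its other probe sets gave 0.74 and, for the dimmest, -0.09 at 2 months.

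The small heat-shock proteins did not share the pattern of the Hsp70 genes. Hspb1, known as Hsp27 in human and Hsp25 in mouse and a stabiliser of actin filaments (chr5:135887919-135889563), overlapped fully at 2 months, with diabetic arrays at 11.26 to 11.82 and control arrays at 11.10 to 11.82, a difference of 0.04 ± 0.16. At 4 months the difference was 0.19 ± 0.18 (limma adjusted p = 0.801). At 8 months its diabetic arrays 1 to 6 read 10.78, 11.29, 11.59, 10.27, 10.75 and 10.29, against 9.47, 9.53, 9.63, 9.70, 9.52 and 9.74 on the control arrays. Every diabetic array was above every control array, and the diabetic arrays differed by more than 1 unit among themselves. Hspb1 rose at 8 months by 1.23 ± 0.16, or 2.34-fold (10.83 ± 0.53 and 9.60 ± 0.11, SD, n = 6 each, limma adjusted p = 1.34e-06). Its other probe set gave 1.40, and leaving out any array of that age gave 1.08 to 1.34 with a limma adjusted p of at most 8.85e-06. A gene with every diabetic array above every control array was common at that age, at 5.41% of all genes, and 9.87% of all genes were called higher.

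Other markers were called in the same 8-month kidneys, when 9.87% of all genes were called higher and 6.95% lower. Of the injured tubule markers 6 of 6 rose (median 2.45), with a mean signal of 8.86 to 10.98 on the diabetic arrays and 7.25 to 7.71 on the control arrays, led by Lcn2 (4.79 ± 0.35) and Havcr1 (3.01 ± 0.28). Of the macrophage markers 6 of 7 rose (median 1.52), at 8.66 to 10.20 on the diabetic arrays and 7.54 to 7.90 on the control arrays. Of the smooth muscle and pericyte markers, cells in which Hspb1 and Cryab are abundant, 3 of 6 rose (median 0.41), at 8.27 to 9.19 on the diabetic arrays and 7.67 to 8.23 on the control arrays. Diabetic array 3 was the highest in Hspb1 and in the injured tubule and macrophage means alike, and array 4 was the lowest in Hspb1 and in the injured tubule mean. Among the kidney segment markers 6 of 7 fell and 1 rose. The part of these cell changes in the Hspb1 difference was not tested.

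Cryab, the alpha-B crystallin (chr9:50745951-50756636), was the member with a lower signal in diabetic kidneys at 2 months. Diabetic arrays 1 to 6 read 10.26, 11.42, 10.99, 11.21, 10.94 and 10.96, and control arrays 11.40, 11.37, 11.36, 11.49, 11.28 and 11.41. Diabetic array 2 lay among the controls and the other 5 diabetic arrays lay below all of them. The difference was -0.42 ± 0.12, and -0.28 without diabetic array 1, the lowest. It was -0.17 ± 0.13 at 4 months (limma adjusted p = 0.717) and 0.14 ± 0.12 at 8 months (limma adjusted p = 0.453). A second probe set gave -0.27 at 2 months, and -0.47 without control array 6, where the probe sets disagreed (11.41 and 10.26).

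**Figure D3:**
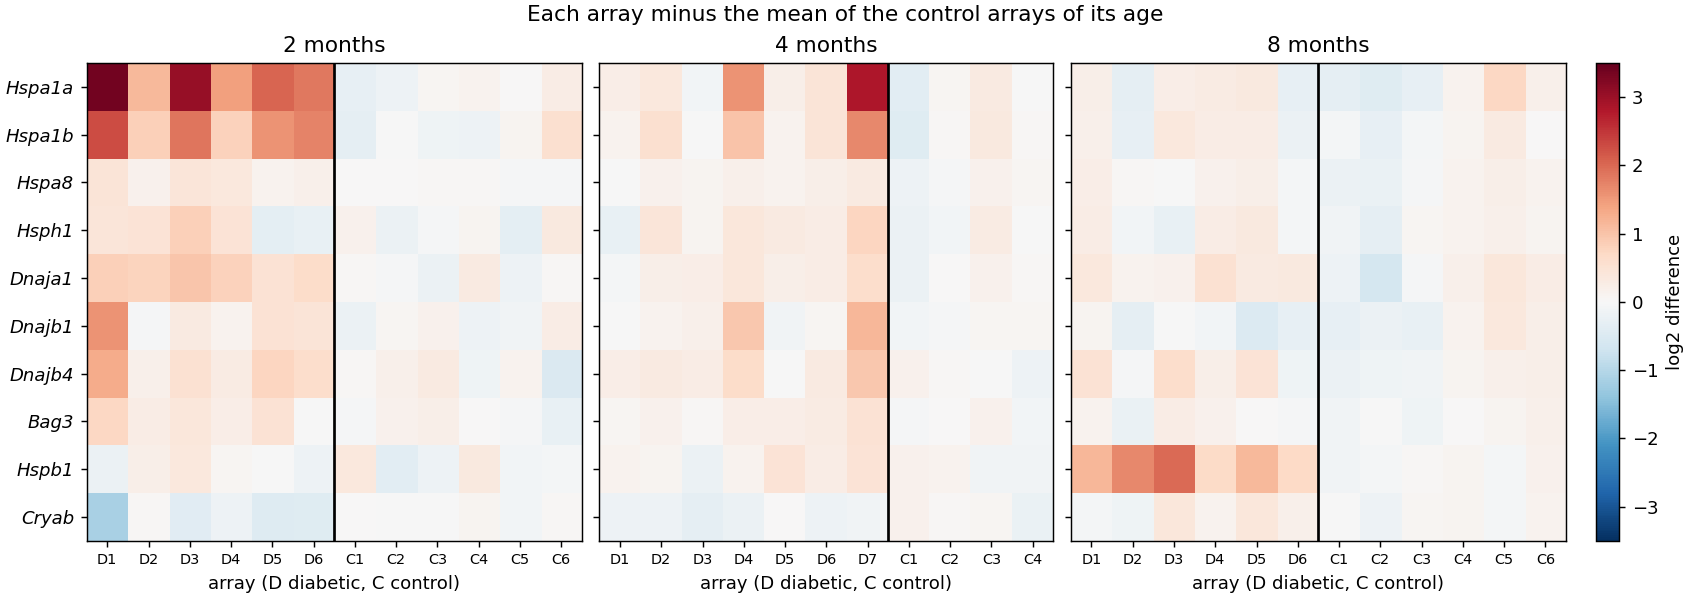
Each array (columns, D diabetic and C control, numbered as in the labels) minus the mean of the control arrays of its age, for the 10 genes (rows), in log2 units by colour. Diabetic array 1 at 2 months and diabetic arrays 4 and 7 at 4 months are high in several genes at once, and the 8-month diabetic arrays are high mainly in Hspb1.

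Averaged over the 10 genes, the 2-month diabetic arrays 1 to 6 stood 0.97, 0.40, 0.83, 0.44, 0.52 and 0.46 above the control mean, against -0.07 to 0.06 for the control arrays. At 4 months the diabetic arrays spanned 0.02 to 0.92, with array 7 highest and array 4 next at 0.53, against -0.11 to 0.14 for the control arrays. At 8 months they spanned 0.01 to 0.37, against -0.25 to 0.23. At 2 months all diabetic arrays thus stood above all controls, which follows from how the genes were picked. Hspa1a and Hspa1b, with the largest differences, weigh most in that mean. At 4 months 5 of 7 diabetic arrays stood above all controls, with arrays 1 and 3 within the control range, and at 8 months the ranges overlapped.

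Other array features differed as well. The mean of 9 immediate early genes, which respond within minutes to stress and handling, was 9.52 on diabetic array 1 at 2 months, above the 7.77 to 8.55 of the other diabetic arrays and the 7.68 to 8.36 of the control arrays. At 4 months it was 9.86 on diabetic array 7 and 8.10 on diabetic array 4, so the array pair that was high in Hspa1a lay at opposite ends of it. All 9 had a positive difference at 2 months, with a median of 0.33, where 45.8% of all genes were positive. None of the 9 was called at 2 months by limma, with 1 at an unadjusted p under 0.05 (Jun, 0.94 ± 0.31, adjusted p = 0.0963). Jun was called with a block of array numbers (limma adjusted p = 0.0461) and without diabetic array 2 (limma adjusted p = 0.0462). The clock state, measured as the signal of Arntl minus that of Dbp, which peak at opposite times of day, was -1.49, -4.37, -4.29, -3.97, -0.38 and 0.34 on the 2-month diabetic arrays, against -5.02 to -1.21 on the control arrays. At 4 months it was -0.91 and 0.15 on control arrays 3 and 4, -4.48 and -4.23 on the other controls, and -5.46 to -4.34 on the diabetic arrays. With the clock state as a covariate the median difference of the 10 genes was 0.39 at 2 months, and it was 0.50 over arrays 1 to 4 and 0.40 over arrays 5 and 6. At 2 months 2.54% of all genes were called. No macrophage, injured tubule or smooth muscle marker was called at that age, of 7, 6 and 6 tested, too few to tell from that share. Of 7 kidney segment markers 1 was lower, Umod. Its call was lost in 8 of 12 fits that each left out 1 array, without the filter on dim genes and with quantile normalization. The part of handling or time of day in the Hspa1a difference was not tested.

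Whether the genes moved together from array to array was examined after the mean of each of the 6 groups had been removed, which leaves out the differences that chose them. Over 35 arrays Hspa1b followed Hspa1a with a Pearson r of 0.914 and a Spearman rho of 0.897 (permutation p adjusted over the 9 genes 4.5e-05, from a raw p of 1e-05, the smallest that these permutations can give). For Dnajb1 r was 0.826 and rho 0.737, with the same permutation p, and r was 0.767, 0.933 and 0.706 within the 2-, 4- and 8-month arrays. Without the arrays farthest in Hspa1a, diabetic array 7 at 4 months and diabetic array 1 at 2 months, r was 0.861 for Hspa1b and 0.717 for Dnajb1. Hspa1a and Dnajb1, which belong to different families, varied together at each age, while the Hspa1b relation may contain shared hybridisation, which was not tested.

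Hspa8 followed with r = 0.619 and rho = 0.664 (adjusted permutation p = 0.00012), and 0.624, 0.637 and 0.849 within the ages. For Dnajb4 r was 0.683 and rho 0.625 (adjusted permutation p = 0.000428), but it was 0.809 over the diabetic arrays and 0.14 over the control arrays, a difference that was not tested. Bag3 had r = 0.606 and rho = 0.601 (adjusted permutation p = 9e-04), and r = 0.435 without the 2 farthest arrays. These genes thus kept a positive relation at each age, at least 0.502 for Bag3 and 0.565 for Dnajb4.

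Dnaja1 gave r = 0.549 and rho = 0.623 (adjusted permutation p = 0.000774), with only 0.281 at 2 months against 0.808 and 0.745 at 4 and 8 months. Hsph1 gave r = 0.497 and rho = 0.484 (adjusted permutation p = 0.027), and without the 2 farthest arrays 0.419 (adjusted permutation p = 0.0678), which did not pass. Hspb1 and Cryab did not follow Hspa1a, with r = 0.0896 and rho = 0.00784 (adjusted permutation p = 0.57) and r = -0.293 and rho = -0.0566 (adjusted permutation p = 0.214). Within the 2-month arrays Cryab ran opposite to Hspa1a, at -0.808. Across the 12994 other genes the same r had a median of 0.0109, with 5th and 95th percentiles of -0.277 and 0.315. The arrays share labelling, scaling and the array features above, and a common array effect on these genes was not tested.

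**Figure D4:**
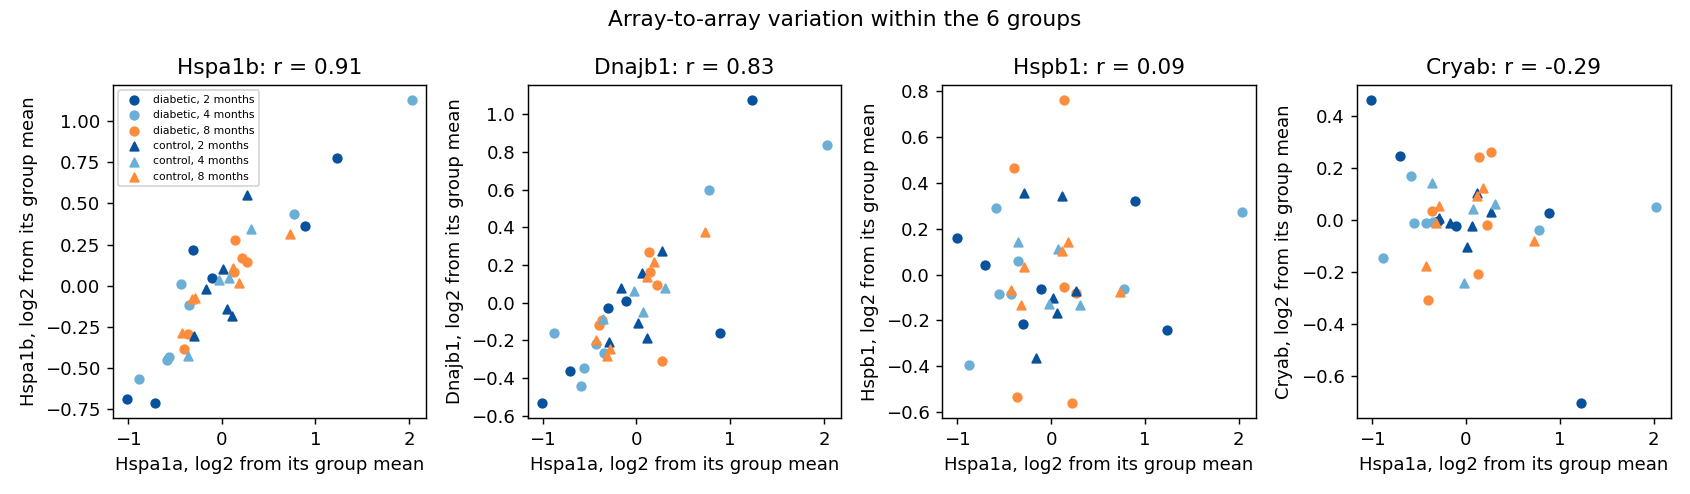
Signals of Hspa1b, Dnajb1, Hspb1 and Cryab (vertical axes) against Hspa1a (horizontal axes), each as log2 distance from the mean of its own group, on 35 arrays (circles diabetic, triangles control, coloured by age). Hspa1b (r = 0.91) and Dnajb1 (r = 0.83) fall along a line that holds both groups, whereas Hspb1 (0.09) and Cryab (-0.29) do not.

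The non-member genes whose signals ran closest to the mean of the 10 genes, after the mean of each age was removed, were Pmaip1 (r = 0.834 over 35 arrays), Atg16l1 (0.789), Ddit3 (0.773), Rcan1 (0.756), Jun (0.748), Fastkd5 (0.738), Rab3il1 (0.738) and Erlin1 (0.738). Pmaip1 encodes the BH3-only protein Noxa, Ddit3 the stress transcription factor CHOP, Rcan1 an inhibitor of calcineurin, and Jun a subunit of AP-1. These r values contain the difference between the groups. With the group means removed they were 0.745 for Pmaip1, 0.674 for Atg16l1, 0.684 for Ddit3, 0.619 for Rcan1 and 0.607 for Jun. For Fastkd5, Rab3il1 and Erlin1 they were 0.566, 0.483 and 0.495. Pmaip1 and Rcan1 had differences of about equal size or larger at the later ages, 0.77, 0.95 and 0.85 for Pmaip1 and 0.71, 1.15 and 1.01 for Rcan1 at 2, 4 and 8 months. Most of the 10 had smaller differences later, which partly follows from choosing a set strongest at 2 months, so no contrast is drawn. No p is given for the non-member genes, since they were picked for this likeness.

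The other chaperones give the setting. Of 35 further genes of the cytosolic network (Hsp90, further Hsp70 and J-domain genes, BAG genes, co-chaperones and small heat-shock proteins) 31 passed the filter, and Hsp90ab1, Ptges3, Hsf1 and Hsf2 did not enter the test. At 2 months 1 of the 31 was called higher and 0 lower by limma, against 0.754% and 1.78% of all genes, and the median difference was 0.03. With a block of array numbers, a pairing that the labels do not give, 2 of the 31 were called, both higher. The called gene was Hspa2, a further Hsp70 best known from the testis (0.55 ± 0.13, 7.62 ± 0.41 in diabetic and 7.07 ± 0.18 in control kidneys, SD, n = 6 each, limma adjusted p = 0.0193). It was not called without diabetic array 1, diabetic array 3 or control array 1, nor when the 2-month arrays were fitted by themselves (limma adjusted p = 0.199). Hsp90aa1, the inducible Hsp90, had -0.24 ± 0.09 at 2 months and did not pass (limma adjusted p = 0.163). At 4 months 0 of the 31 were called by limma, where 0.969% of all genes were. An unadjusted p under 0.05 was reached by 3 of them, as by 11.4% of all genes.

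At 8 months 3 of the 31 were called higher and 0 lower, a share near the 9.87% of all genes called higher, and their median was 0.10. Hspb8, a small heat-shock protein that works with Bag3, rose by 0.91 ± 0.13 (limma adjusted p = 6.85e-06). Bag2, an exchange factor that inhibits the ubiquitin ligase CHIP, rose by 0.95 ± 0.15 (limma adjusted p = 1.31e-05), and Hspa4, an Hsp110 relative, by 0.38 ± 0.12 (limma adjusted p = 0.0261). Hspa4 was not called without diabetic array 3, diabetic array 5 or control array 2, nor with the mean of its probe sets (0.11). Hspb8 and Bag2 were called under each of 7 other settings and without any single array of that age.

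In the endoplasmic reticulum 16 of 16 chaperone genes were tested, and the median differences at the successive ages were -0.20, -0.13 and 0.22. At 2 months 0.754% of all genes were called higher and 1.78% lower. Of the 16, 1 was higher, Dnajb9 (0.52 ± 0.11, limma adjusted p = 0.00512), a J-domain partner of BiP, and 3 were lower. Those were Dnajc3, which also inhibits the kinase PERK (-0.41 ± 0.08, limma adjusted p = 0.00245), and Pdia6 and Hyou1, a disulfide isomerase and an Hsp70 relative (-0.46 ± 0.12 and -0.41 ± 0.11, limma adjusted p = 0.0254 and 0.0273). When the 2-month arrays were fitted by themselves none of Dnajb9, Dnajc3 and Pdia6 was called, and Pdia6 was called in only 5 of 12 fits that each left out 1 array. With the mean of their probe sets neither Dnajc3 nor Pdia6 was called (-0.24 and -0.29, limma adjusted p = 0.29 and 0.137). At 4 months 0 were called by limma, against 0.969% of all genes, and 5 had an unadjusted p under 0.05, as did 11.4% of all genes. At 8 months 9.87% of all genes were called higher and 6.95% lower. Of the 16, 5 were higher and 0 lower, among them Hspa5, the chaperone BiP (0.57 ± 0.15, limma adjusted p = 0.00744), Manf (0.84 ± 0.21, limma adjusted p = 0.00491) and Creld2 (0.90 ± 0.23, limma adjusted p = 0.0064). The median of the endoplasmic reticulum genes was thus highest at 8 months, and the differences of Hspa1a and Hspa1b were largest at 2 months. That contrast was not tested, because the 2-month values chose the heat-shock genes.

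Mitochondrial chaperones (8 of 8 tested) had medians of 0.01, 0.06 and -0.07 at 2, 4 and 8 months. By limma 0 were called at the first 2 ages, against 2.54% and 0.969% of all genes. At 8 months, when 6.95% of all genes were lower, 1 was lower, Trap1, the mitochondrial Hsp90 (-0.33 ± 0.07, limma adjusted p = 0.00076). Of 14 chaperonin and prefoldin genes 1 was lower at 2 months, when 1.78% of all genes were lower. It was the chaperonin subunit Cct5 (-0.29 ± 0.06, limma adjusted p = 0.00758, and 0.199 with the 2-month arrays by themselves). At 4 and 8 months 0 of the 14 were called, against 0.969% and 16.8% of all genes. The medians of the 14 genes were -0.12, -0.04 and 0.08.

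**Figure D5:**
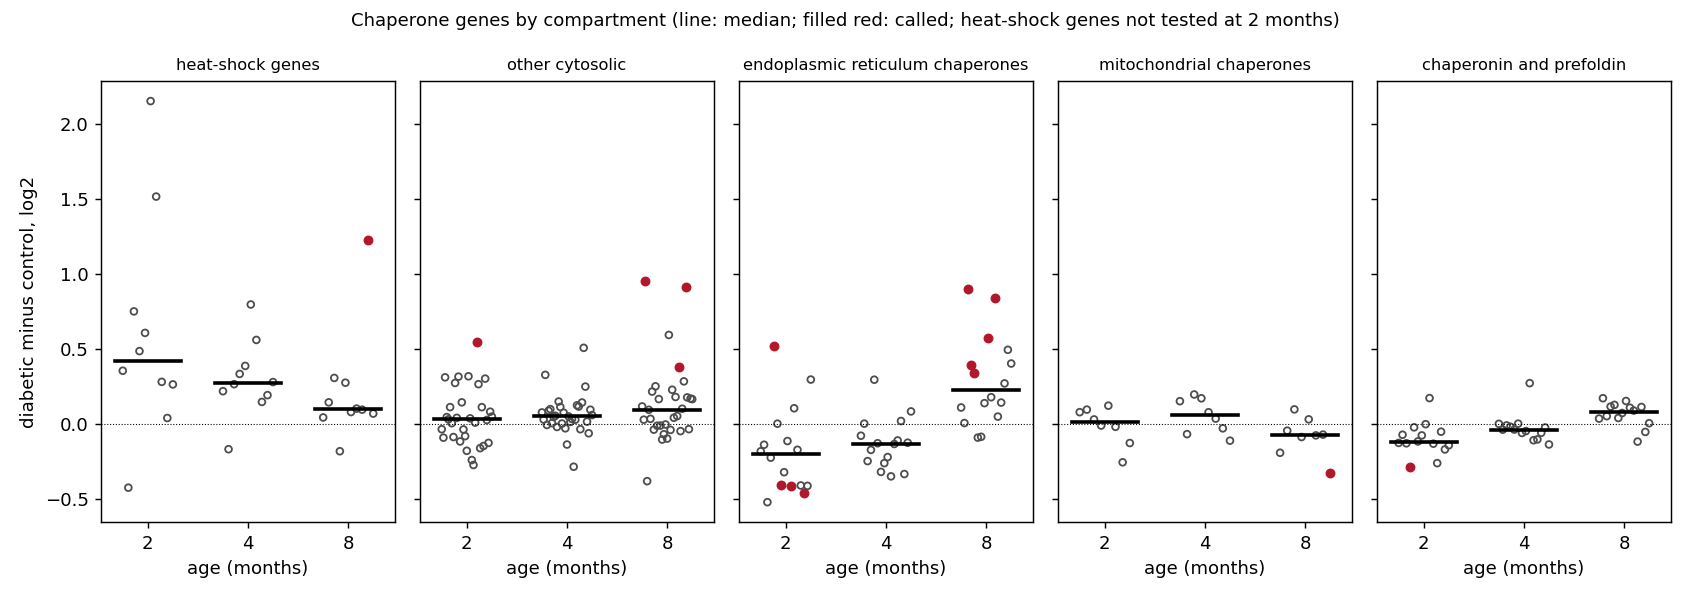
Differences (vertical axis, diabetic minus control, log2) of each tested gene at 2, 4 and 8 months for the 10 heat-shock genes and 4 further groups of chaperones, with a line at the median and called genes filled in red (the heat-shock genes were not tested at 2 months). The heat-shock genes reach 2.15 at 2 months, where the other groups stay within 0.55. That contrast partly follows from choosing the heat-shock genes as a set strongest at 2 months. The endoplasmic reticulum median goes above 0 only at 8 months.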

How the data were processed

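Whole-kidney RNA was extracted with TRIzol and hybridised as biotin-labelled cRNA, per the labels. The log2 values are those the authors deposited for 45101 probe sets on 35 arrays, and scanner files were not used here. How background, summarization and normalization were handled is not given in the sources used here. Of the probe sets 34945 name 1 gene, and each gene was represented by its brightest one over all arrays. A gene had to average at least 5.27, the value that 40 percent of probe sets stay below. limma 3.58.1 (R 4.3.3, data.table package, version 1.17.8) fitted a mean for each of 6 groups with 29 residual degrees of freedom (33.7 moderated), and p-values were adjusted by Benjamini and Hochberg over 13004 genes at a threshold of 0.05. A gene has 1 spread over all groups, so its standard error understates the error of groups that vary more than the rest. Replicate arrays correlated at 0.970 to 0.998 across probe sets. The script was tested on simulated data. Correlations used 100000 permutations of arrays within groups.

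The members and the 12 lists were chosen with earlier results of these data known. Named are the 10 members, up to 4 genes a list with the smallest p, the 8 genes most like the members, and array descriptors; Hyou1, Creld2, Hspa5, Hsp90aa1 and Dnajb11 were named after their values were seen. Array numbers were tested as pairs. At 2 months same-numbered arrays, after removal of group means, correlated at 0.246 to 0.444 in 6 of 6 pairs, which the labels do not explain, at 4 months at 0.0484 to 0.177 (1 of 4 over 0.1), and at 8 months at -0.142 to 0.233 (2 of 6). Other settings were the probe set rule, the dim filter, quantile normalization, 1 age alone, a clock covariate, a block or batch of array numbers, and leaving out arrays.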

Additional observations from a re-analysis of the deposited data

Results flagged for a closer look

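Of 60 groups of member values examined for a sample apart from the rest, 1 had one, where chance gives about 1 in 20. Dnajb1 on diabetic array 1 at 2 months read 11.08, against 9.47 to 10.02 on the other diabetic arrays and 9.31 to 9.79 on the control arrays.

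For 6 of 69 chaperone genes outside the 10 members, the difference between diabetic and control kidneys itself differed between 8 and 2 months, by a limma interaction term adjusted over all genes, as it did for 506 of 13004 genes (3.89%). Between 4 and 2 months the same limma term called 0 of the 69 and 0 of all genes, with 4 of the 69 at an unadjusted p under 0.05 (5.08% of all genes). Between 8 and 4 months it called 0 of the 69 and 0.877% of all genes, with 12 of the 69 at an unadjusted p under 0.05 (12.4% of all genes). The 8-month minus the 2-month difference was 1.42 for Creld2 (adjusted p = 0.0104), 0.73 for Pdia6 (adjusted p = 0.00861), 0.62 for Dnajb11 (adjusted p = 0.0446), 0.59 for Hyou1 (adjusted p = 0.0187), 0.47 for Hsp90aa1 (adjusted p = 0.0303) and 0.40 for Cct5 (adjusted p = 0.00626). All 6 had a negative value at 2 months and a positive one at 8 months. Hsp90aa1 had -0.24 ± 0.09 at 2 months and 0.23 ± 0.09 at 8 months, and neither was called at its own age (limma adjusted p = 0.163 and 0.0777). The 2 ages may have been scaled apart, and the part of this in the differences was not tested.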

How the results depend on the processing

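Of the called results that were recomputed under other settings, none changed direction; Hyou1, Hspa5, Creld2 and the differences between ages were not recomputed. Among results on single genes and correlations, 1488 were counted as unchanged under settings other than leaving out 1 array. These stayed on their side of the threshold or, where no test was made, moved by less than the spread between arrays. Another 31 newly passed the threshold, 37 no longer passed it and 3 untested values moved by more than the spread. Without 1 array these counts were 2097, 19, 54 and 0. Over all genes, the 2-month count of 330 was 553 with the replicate block, 64 with the arrays of that age alone, 571 with arrays 5 and 6 alone, 696 with a batch term for them, and 192 to 515 without 1 array. The 4-month count of 126 was 358 with that age alone, 5 without controls 3 and 4, and 29 to 135 without 1 array (29 without control 4, 36 without control 3, 78 without diabetic 5). The 8-month count of 2187 was 1633 to 2329 without 1 array. Of the 10 heat-shock genes 0 were called at 4 months under each of 8 other settings and without any 1 array. At 8 months 1 was called, and 2 with the replicate block (Hspb1 and Dnaja1), and 1 to 2 without 1 array. Their median difference without 1 array was 0.27 to 0.48 at 2 months (0.27 without diabetic 1), 0.20 to 0.35 at 4 months and 0.05 to 0.17 at 8 months. Of the other cytosolic chaperones 1 was called at 2 months, higher, but 2 higher with the replicate block, 2 higher when only arrays 1 to 4 of that age were kept, 2 lower when only arrays 5 and 6 were kept, 0 with that age alone and 0 to 2 without 1 array. At 4 months 0 were called, but 1 with the replicate block, and 0 without any 1 array. At 8 months 3 were called, but 6 with the replicate block, 5 with quantile normalization over all arrays, 5 with that age alone and 2 to 4 without 1 array. The block pairs arrays by number, a pairing that the labels do not give and that was not tested against arrays of other numbers. Causes of these changes were not tested. The correlations without control array 6 or the 2 farthest arrays were chosen after seeing the data. The number of arrays and the unknown scaling between ages limit the precision.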

Other observations

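Of the osmotic response genes, which the kidney medulla uses to take up and make organic solutes, 5 of 6 were tested, and 0 were called at any age by limma (0, 1 and 0 at an unadjusted p under 0.05 at 2, 4 and 8 months). The betaine transporter gene Slc6a12 differed by 0.41 ± 0.28, 0.70 ± 0.31 and 0.40 ± 0.28 at the successive ages, and Nfat5, the factor that drives these genes, had -0.01 ± 0.11, -0.14 ± 0.12 and -0.03 ± 0.11. The median difference of the list was -0.01, -0.09 and -0.03. Over all genes, 2.54%, 0.969% and 16.8% were called by limma at these ages, and 15.2%, 11.4% and 28.6% had an unadjusted p under 0.05.

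Of 11 clock genes tested 0 were called at 2 and 4 months by limma (0 and 5 at an unadjusted p under 0.05) and 2 were lower at 8 months, Per3 (-0.76 ± 0.22, limma adjusted p = 0.0152) and Tef (-0.42 ± 0.14, limma adjusted p = 0.035). Neither was called without diabetic array 5 of that age (limma adjusted p = 0.0662 and 0.128), and Tef was also lost when diabetic array 2 or 3 or control array 1, 2 or 3 was left out. Of the immediate early genes 1 of 9 was called at 4 months, Nr4a1 (1.41 ± 0.32, limma adjusted p = 0.0185), and 1 at 8 months, Atf3 (1.57 ± 0.26). Positive differences were seen in 9, 9 and 5 of the 9 at 2, 4 and 8 months, with medians of 0.33, 0.68 and 0.07. Over all genes, 2.54%, 0.969% and 16.8% were called at these ages, and 45.8%, 53.5% and 49.9% were positive. Nr4a1 was not called without 4-month control 3 (limma adjusted p = 0.133) or control 4 (limma adjusted p = 0.0689), the 2 control arrays with a clock state of -0.91 and 0.15 against -4.48 and -4.23 on the others.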
